A study of Mus musculus with 15 samples.

Results

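Regulatory T cells (Tregs), the Foxp3-bearing T cells that restrain immune responses, were sorted from the peritoneal cavity of adult mice and polyadenylated RNA of each sorted sample was sequenced as 1 library. The comparison set 2 libraries from dDC mice (dDC 1 and 2) against 2 libraries from littermate controls (control 1 and 2), both on the C57BL/6 background and both carrying a Foxp3 reporter through which the cells were sorted. These 4 libraries are those whose labels name the peritoneal cavity, out of 15 in the series. The other 11 are spleen Tregs (3 dDC, 3 control) and thymus Tregs (2 dDC, 3 control), which served here to estimate the spread and to set the peritoneal values beside other tissues. The labels call the line RelB-dDC without spelling it out, and it is read here as mice whose dendritic cells lack RelB. The driver of the deletion is not given in the sources used here. Neither is it stated whether each library came from 1 mouse or from a pool. So the p-values measure a spread between samples, estimated over all 15 libraries together, that may be partly technical.

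RelB is a subunit of NF-kappaB that dendritic cells need to mature, and dendritic cells in turn supply the antigen, costimulation and cytokines that Tregs depend on. Resting or central Tregs carry the homing receptor CCR7 and the survival protein BCL-2. Effector and tissue Tregs lose these and display inhibitory receptors such as KLRG1 and PD-1, the interleukin 33 receptor ST2 (gene Il1rl1), the transcription factor GATA3 and receptors for inflamed tissue.

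The 4 peritoneal libraries held 20114264 and 18763527 counts in dDC 1 and 2, and 20484403 and 15714286 counts in control 1 and 2. Values per gene are given below in CPM, counts scaled to a common total after TMM correction of the library sizes. The Treg label was met in all 4 libraries. Foxp3 had 261 and 199 CPM in dDC libraries, against 254 and 320 CPM in controls, and the groups overlapped (log2 change -0.32, SE 0.20, edgeR adjusted p = 0.832). Il2ra, the high-affinity chain of the interleukin 2 receptor, had 421 and 362 CPM in dDC and 391.7 and 550 CPM in controls (edgeR adjusted p = 0.871). Cd3e, a chain of the T cell receptor complex, had 1844 and 1609 CPM in dDC and 1314 and 1285 CPM in controls. Relb itself, which in Tregs is not the target named by the line, had 7.72 and 10.1 CPM in dDC and 17.5 and 10.5 CPM in controls (edgeR adjusted p = 0.807), so it is no check of the genotype labels.

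Control 2 stood apart from the other peritoneal libraries in macrophage markers, and control 2 and dDC 2 were the higher libraries in B cell markers. The summed level of 16 tested macrophage markers was 465.6 and 569 CPM in dDC 1 and 2, 365 CPM in control 1 and 2355 CPM in control 2. Lysozyme (Lyz2) alone had 98.7 and 190 CPM in dDC, 46.2 CPM in control 1 and 1187 CPM in control 2, and the peritoneal macrophage factor Gata6 had 0 reads in both dDC libraries and in control 1 and 21 reads in control 2. The sum over 19 B cell markers was 5914 and 11266 CPM in dDC, 5236 CPM in control 1 and 19063 CPM in control 2. Most of that sum was Cd74 and MHC class II genes, which are not confined to B cells. Cd74 alone had 3188 and 5962 CPM in dDC, 2795 CPM in control 1 and 11750 CPM in control 2. Cd22, a B cell gene, had 80.7 and 116 CPM in dDC, 66.8 CPM in control 1 and 149 CPM in control 2. Immunoglobulin genes held 0.39 and 0.61 percent of counts in dDC 1 and 2, 0.38 percent in control 1 and 0.69 percent in control 2. Detected genes numbered 21234 and 20775 in dDC 1 and 2, 20182 in control 1 and 19399 in control 2, which also had the fewest counts of the 4. Results below are given with their values in both controls, and the part of these other cells in them was not tested. In bulk RNA, more cells of a type and more RNA per cell cannot be told apart.

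**Figure D1:**
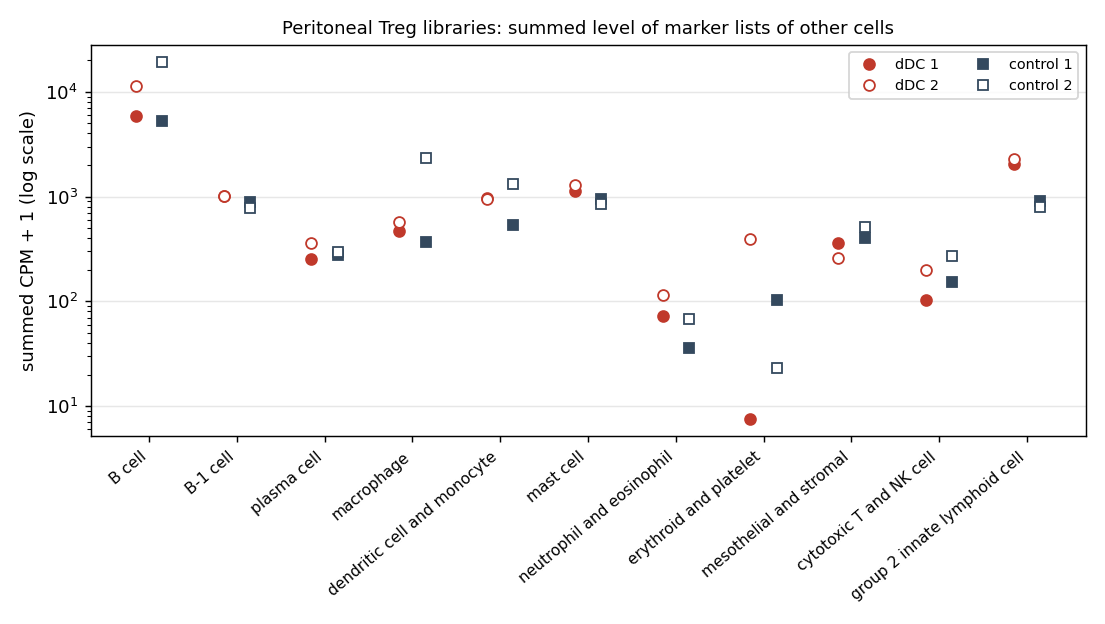
Summed CPM (log scale, 1 added) of 11 marker lists of other cells in each peritoneal library, dDC as circles and control as squares, with library 1 filled and library 2 open. Control 2 lies at 2355 CPM for macrophage markers and 19063 CPM for B cell markers, above the other 3 libraries. Cd74, not confined to B cells, alone had 11750 CPM of the latter sum. The mast cell sum is nearly all Srgn and the mesothelial or stromal sum nearly all Pecam1. The sum for group 2 innate lymphoid cells is nearly all Klrg1, Id2, Gata3 and Il1rl1.

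Across 18423 tested genes, 1 passed the threshold (adjusted p under 0.05, edgeR quasi-likelihood) as higher in dDC, 0.00543 percent of the genes, and 0 passed as lower. That gene was Krt83 (ENSMUSG00000067613, chromosome 15, 101485131 to 101491512, minus strand, mm10), which encodes a hair keratin. It had 2.99 and 7.39 CPM in dDC 1 and 2, from 58 and 133 reads, and 0 reads in both controls. It rose at least 30.8-fold against a floor of 3 counts per control library (edgeR adjusted p = 0.0214). The call was lost with limma (adjusted p = 0.0625), without control 2 (edgeR adjusted p = 0.182) and without dDC 2 (edgeR adjusted p = 0.0752). Krt83 had 9.94 ± 0.84 CPM in spleen dDC, 5.30 ± 1.59 CPM in spleen controls (SD, n = 3 each), 20.4 ± 4.94 CPM in thymus dDC (SD, n = 2) and 16.4 ± 5.26 CPM in thymus controls (SD, n = 3), so the peritoneal controls were the only group without a read.

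Behind Krt83, 745 genes (4.04 percent) had an unadjusted p under 0.05 on the higher side and 426 (2.31 percent) on the lower side. Both dDC libraries lay above both controls in 18.7 percent of all genes and below both in 15.4 percent, and the median log2 change over all genes was 0. Other tools called more genes: limma called 7 higher (0.038 percent) and 3 lower (0.0163 percent), and DESeq2 called 131 higher (0.892 percent) and 63 lower (0.429 percent) among 14685 genes with an adjusted p. When genes below a mean of 5 CPM were left out, edgeR called 9 higher (Krt83, Tnfrsf4, Cd200r1, Ccr8, Nrp1, Klrg1, Plekhb2, Itgb1 and Sh3bgrl) and 3 lower (Gtf2i, Gpr83 and Actn1). Without control 1 the count was 138 higher and 8 lower, and without dDC 2 it was 0 in both directions. Without control 2 it was 1 higher, Nrn1 and not Krt83. Most genes below are therefore given as values that did not pass the edgeR threshold over all genes. Besides the 15 leading genes in each direction, the genes of Treg function always given (such as Foxp3, Relb and Il2ra), and the 2 to 4 members of each list with the smallest p, the genes named were chosen after their values were seen. The library kit does not mark strand, so reads of Foxp3, Sh3bgrl, Satb1, Tnfrsf18, Ikzf2, Gata3, Cish, Bcl2, Foxp1, Bach2, Lef1, Ebi3, Lcp2, Rora, Tox, Map2, Znrf1, Rhoq and Zfp335 cannot be told from those of genes that overlap them. Floors and counts of reads cover counting error only.

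In mm10 the genes described most closely here span, as the deposited annotation gives them, Tnfrsf4 on chromosome 4 (156013843 to 156016612), Cd200r1 on chromosome 16 (44765736 to 44794978), Klrg1 on chromosome 6 (122270596 to 122282882), Nrp1 on chromosome 8 (128359073 to 128505462), Itgb1 on chromosome 8 (128685654 to 128733200), Gtf2i on chromosome 5 (134237834 to 134314760), Actn1 on chromosome 12 (80167542 to 80260371), Gpr83 on chromosome 9 (14860210 to 14870789), Gata3 on chromosome 2 (9857078 to 9890034), Il1rl1 on chromosome 1 (40429570 to 40465415), Pdcd1 on chromosome 1 (94038305 to 94052553) and Bcl2 on chromosome 1 (106538178 to 106714274).

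Among the leading genes on the higher side, 5 encode receptors of activated or tissue Tregs. Tnfrsf4, which encodes the costimulatory receptor OX40, had 1603 and 1656 CPM in dDC libraries, against 919.8 and 604 CPM in controls (log2 1.10, SE 0.17, edgeR adjusted p = 0.104, limma adjusted p = 0.0322). Cd200r1, an inhibitory receptor, had 193 and 232 CPM in dDC and 64.8 and 49.0 CPM in controls (log2 1.90, SE 0.30, edgeR adjusted p = 0.104, limma adjusted p = 0.0422). Klrg1, an inhibitory lectin receptor that binds cadherins, had 296 and 315 CPM in dDC and 83.2 and 70.3 CPM in controls (log2 1.99, SE 0.33, edgeR adjusted p = 0.104, limma adjusted p = 0.0322). In each of these genes the dDC libraries lay close together and well above both controls. Ccr8, a chemokine receptor of tissue and tumour Tregs, had 3.09 and 9.56 CPM in dDC, against 0.489 and 0 CPM in controls (log2 4.53, SE 0.72, edgeR adjusted p = 0.104). Nrp1, the semaphorin receptor neuropilin 1, had 1255 and 1066 CPM in dDC and 718 and 689 CPM in controls (log2 0.72, SE 0.12, edgeR adjusted p = 0.104).

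The remaining genes on the higher side had varied roles. Itgb1, integrin beta 1, had 722 and 595 CPM in dDC and 344 and 306 CPM in controls (log2 1.02, SE 0.17, limma adjusted p = 0.0322). Sh3bgrl, for a small thioredoxin-like protein, had 608 and 517 CPM in dDC and 289 and 267 CPM in controls. Plekhb2, for an endosomal protein, had 472 and 512 CPM in dDC and 233 and 176 CPM in controls (limma adjusted p = 0.0422). Both dDC libraries exceeded both controls in each of these. A cytokine and a receptor kinase were at low values. Tnfsf11, which encodes the TNF-family ligand RANKL, had 14.0 and 9.94 CPM in dDC and 1.91 and 0.380 CPM in controls (log2 3.36, SE 0.65), and Axl, a receptor tyrosine kinase that binds GAS6, had 27.4 and 26.2 CPM in dDC and 5.67 and 2.15 CPM in controls (log2 2.76, SE 0.48). The ephrin receptor gene Ephb6 (log2 2.33), the carboxypeptidase gene Cpd (4.77), Prr13 (0.85) and Aldh18a1 (1.29), an enzyme of proline synthesis, completed the 15. None of these 9 genes beside Krt83 and the receptors passed the edgeR threshold.

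On the lower side, Gtf2i, a general transcription factor, had 127 and 105 CPM in dDC and 260 and 342 CPM in controls (log2 -1.38, SE 0.20, edgeR adjusted p = 0.104, limma adjusted p = 0.0422). Actn1, the actin cross-linker alpha-actinin 1, had 57.8 and 49.9 CPM in dDC and 159 and 183 CPM in controls (log2 -1.67, SE 0.27, edgeR adjusted p = 0.104). Gpr83, a G protein-coupled receptor that is a marker of naturally arising Tregs, had 32.4 and 13.2 CPM in dDC and 196 and 173 CPM in controls (log2 -3.01, SE 0.50, edgeR adjusted p = 0.104). The dDC values of all 3 stayed under the lower control value. Il6st, the shared signalling chain of interleukin 6 family receptors (gp130), had 78.3 and 71.5 CPM in dDC and 125 and 141 CPM in controls (log2 -0.83). Satb1, a chromatin organizer of T cell development and of naive cells, had 84.4 and 33.2 CPM in dDC and 162 and 301 CPM in controls (log2 -1.97, SE 0.40). Tnfsf8, the CD30 ligand gene, had 107 and 68.1 CPM in dDC and 207 and 218 CPM in controls, and Lta, which encodes lymphotoxin alpha, had 16.4 and 12.5 CPM in dDC and 29.99 and 39.97 CPM in controls (log2 -1.28 for both). So of the TNF-family ligands among the leading genes, Tnfsf11 was on the higher side and these on the lower, none past the edgeR threshold. The ubiquitin ligase gene Cbl (log2 -1.87), the ceramide synthase gene Cers6 (-3.35), Ecm1 (-0.72), Zmynd8 (-1.03), the condensin gene Smc4 (-0.58), the guanylate-binding protein gene Gbp2b (-2.52), Afap1 (-1.35) and Sh3bp1 (-0.80) were the others.

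**Figure D2:**
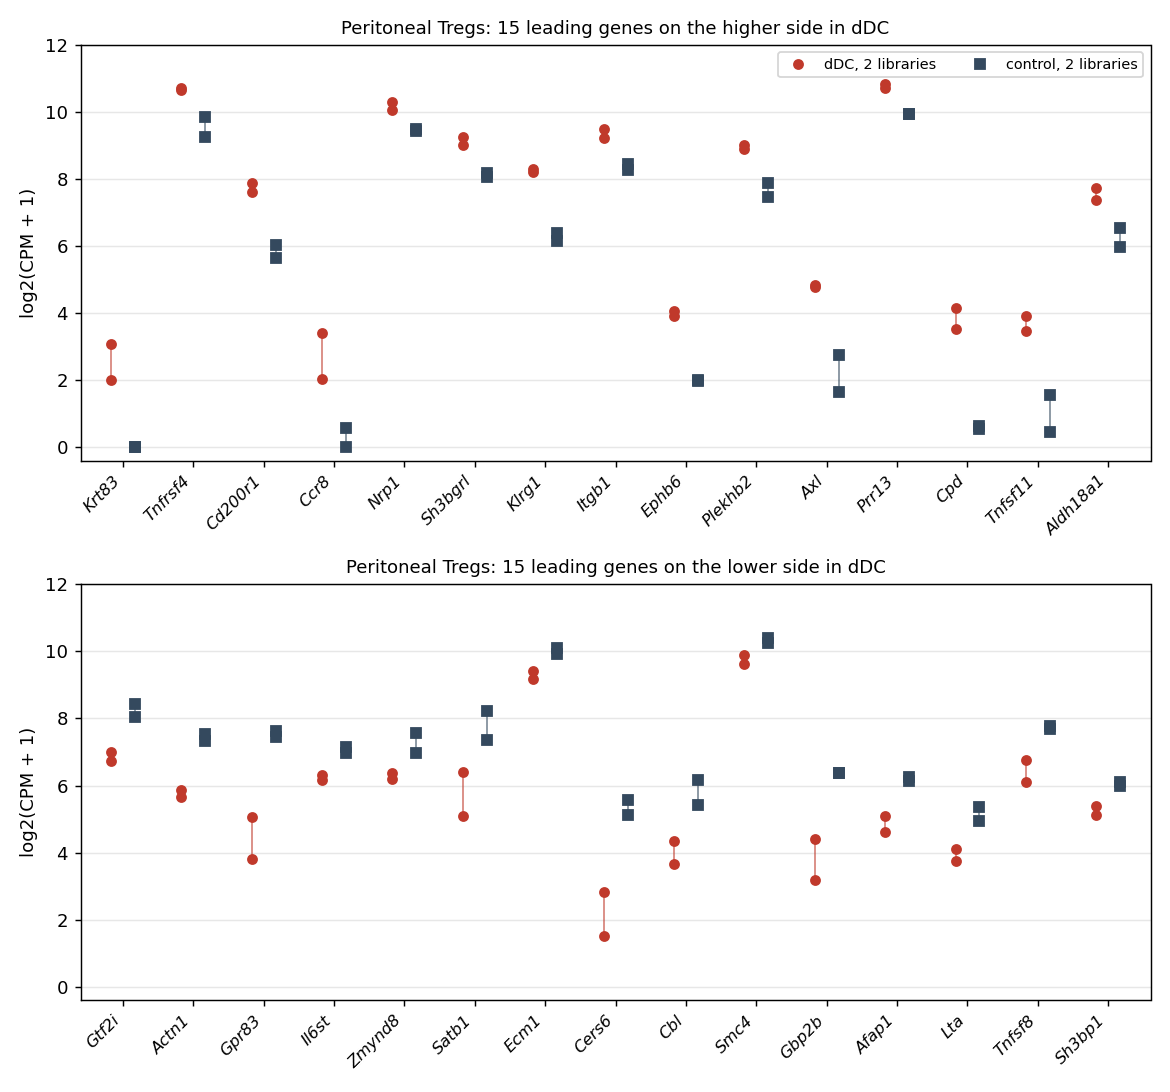
Values in log2(CPM + 1) of the 15 leading genes on the higher side (top) and lower side (bottom), ordered by p, with dDC libraries as circles and control libraries as squares. The groups are separate in all 30 genes, as for Klrg1 with 296 and 315 CPM in dDC against 83.2 and 70.3 CPM in controls. The genes were chosen by a small p in this same comparison.

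The gene lists below were written with earlier results of these data known. Some genes, such as Klrg1 and Bcl2, are in more than 1 list, so the lists are not independent of each other. The shares over all genes at an unadjusted p under 0.05, beside which each list stands, were 4.04 percent higher and 2.31 percent lower. The Treg identity list, 21 genes all tested, had 9 members with an unadjusted p under 0.05 on the higher side and 1 on the lower side. Its median log2 change was 0.47, beside 0 over all genes, and 15 of 21 members were above 0. Besides Tnfrsf4, Nrp1 and Gpr83, the smallest p belonged to Tnfrsf18, which encodes the costimulatory receptor GITR, with 1119 and 1185 CPM in dDC and 789.7 and 623 CPM in controls (log2 0.70, SE 0.15, edgeR adjusted p = 0.234). Ikzf2, the transcription factor Helios, had 932 and 809 CPM in dDC and 677 and 576 CPM in controls (log2 0.47, SE 0.14, edgeR adjusted p = 0.574). Ctla4, the receptor that removes B7 ligands from dendritic cells, had 322 and 411 CPM in dDC and 289 and 235 CPM in controls (log2 0.48, SE 0.18). Itgae, which encodes CD103, the integrin chain that binds E-cadherin, had 31.8 and 51.2 CPM in dDC, 14.5 CPM in control 1 and 2.03 CPM in control 2 (log2 2.31, SE 0.58). Foxp3 and Il2ra, given above, did not share this direction.

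The tissue Treg list, 26 genes, held 11 members with an unadjusted p under 0.05 on the higher side and 0 on the lower side. Its median log2 change was 0.93, and 21 members were above 0. Without dDC 2 the median was 0.59. In 13 members both dDC libraries lay above both controls, and in 0 members below both, beside 18.7 and 15.4 percent of all genes. Gata3, the transcription factor of type 2 and tissue Tregs, had 668 and 728 CPM in dDC and 375 and 271 CPM in controls (log2 1.11, SE 0.29, edgeR adjusted p = 0.412). Il1rl1 had 520 and 397 CPM in dDC and 193 and 115 CPM in controls (log2 1.57, SE 0.58, edgeR adjusted p = 0.676). Cish, an inhibitor of cytokine signalling that STAT5 induces, had 193 and 217 CPM in dDC and 105 and 71.8 CPM in controls (log2 1.21, SE 0.25, edgeR adjusted p = 0.222). Pdcd1, which encodes PD-1, had 450 and 384 CPM in dDC and 209 and 138 CPM in controls (log2 1.26, SE 0.32, edgeR adjusted p = 0.3997). In all 4 genes the higher control stayed below the lower dDC library. Batf, a factor of effector Treg differentiation, had 75.6 and 104 CPM in dDC and 59.0 and 40.2 CPM in controls (log2 0.86). Pparg, the lipid-sensing factor of fat-resident Tregs, had 21.7 and 10.1 CPM in dDC and 0.0489 and 0.0633 CPM in controls, values of 1 read each in the controls (edgeR adjusted p = 0.726). The growth factor gene Areg, a repair product of tissue Tregs, was near 0 throughout, at 0.669 and 0.167 CPM in dDC and 0 reads in both controls.

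The promoters of 3 of these genes are shown, for receptors of tissue Tregs on the higher side (Ccr8 and Il1rl1) and for a Treg receptor on the lower side (Gpr83). They are RefSeq sequences of GRCm38.p6, 250 bases before to 50 bases after the annotated start, and Il1rl1 has 2 annotated starts. The motif of GATA factors that was searched is AGATAA. It was looked for on both strands, and each match stands in capitals (as its reverse complement where it is on the other strand).

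Ccr8, chr9:120091883-120092182, plus strand: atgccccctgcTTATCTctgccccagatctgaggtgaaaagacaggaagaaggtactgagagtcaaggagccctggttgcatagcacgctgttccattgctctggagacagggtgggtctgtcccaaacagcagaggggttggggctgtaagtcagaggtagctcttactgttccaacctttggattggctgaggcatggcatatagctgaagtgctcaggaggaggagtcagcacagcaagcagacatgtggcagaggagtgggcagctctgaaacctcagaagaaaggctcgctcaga

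Il1rl1, upstream start, chr1:40429320-40429619, plus strand: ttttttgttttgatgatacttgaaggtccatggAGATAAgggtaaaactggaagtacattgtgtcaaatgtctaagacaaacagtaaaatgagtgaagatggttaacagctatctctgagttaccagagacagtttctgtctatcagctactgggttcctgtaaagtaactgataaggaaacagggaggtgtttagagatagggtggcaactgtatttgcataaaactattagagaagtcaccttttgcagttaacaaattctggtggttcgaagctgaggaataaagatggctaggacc

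Il1rl1, downstream start, chr1:40439379-40439678, plus strand: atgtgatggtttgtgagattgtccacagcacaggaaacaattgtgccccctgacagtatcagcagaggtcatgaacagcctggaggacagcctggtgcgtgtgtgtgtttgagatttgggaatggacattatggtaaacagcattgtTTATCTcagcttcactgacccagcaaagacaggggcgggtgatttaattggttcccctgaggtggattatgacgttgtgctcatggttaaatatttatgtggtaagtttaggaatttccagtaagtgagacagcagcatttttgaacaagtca

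Gpr83, chr9:14859960-14860259, plus strand: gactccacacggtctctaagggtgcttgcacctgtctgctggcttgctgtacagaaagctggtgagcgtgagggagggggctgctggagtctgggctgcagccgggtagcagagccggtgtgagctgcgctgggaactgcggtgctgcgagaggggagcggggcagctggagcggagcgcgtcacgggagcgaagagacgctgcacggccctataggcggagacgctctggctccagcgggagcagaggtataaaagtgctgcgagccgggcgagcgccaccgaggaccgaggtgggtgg

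The motif occurred once in the Ccr8 window, with its first base 239 bases before the start, and once in each Il1rl1 window, 217 and 103 bases before. It did not occur in the Gpr83 window. Of the 15 leading genes on the higher side, 11 had a promoter sequence available, and 2 of these held AGATAA (18.2 percent). On the lower side it was 1 of 13 (7.69 percent), and 12.7 percent of all 27025 genes held it. The loose NF-kappaB motif, GGG and CC parted by any 5 bases and searched on both strands, occurred in 8 of 11 promoters on the higher side (72.7 percent), in 9 of 13 on the lower side (69.2 percent) and in 53.5 percent of all genes. TGANTCA, the AP-1 motif, occurred in 0 of 11, in 2 of 13 (15.4 percent) and in 8.97 percent of all genes. These are matches of letters and say nothing of binding.

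The effector Treg list, 28 genes, had 14 members with an unadjusted p under 0.05 on the higher side and 1, Ecm1, on the lower side. Its median log2 change was 0.73, with 22 members above 0, and the median was 0.36 without dDC 2. S100a11, a calcium-binding protein gene, had 409 and 464 CPM in dDC and 247 and 234 CPM in controls (log2 0.86, SE 0.17, edgeR adjusted p = 0.222). Tagln2, an actin-binding protein gene, had 1586 and 1864 CPM in dDC and 1037 and 1028 CPM in controls (log2 0.74, SE 0.15, edgeR adjusted p = 0.222, limma adjusted p = 0.0322). Both dDC libraries were above both controls in these. Id2, a repressor of E proteins that effector T cells express, had 565 and 821 CPM in dDC and 247 and 343 CPM in controls (log2 1.23, SE 0.27, edgeR adjusted p = 0.286). Icos, a costimulatory receptor of the CD28 family, had 492 and 699 CPM in dDC and 297 and 350 CPM in controls (log2 0.88, SE 0.23, edgeR adjusted p = 0.412). Not all effector genes moved this way. Prdm1, for the factor Blimp-1, had 34.2 and 52.5 CPM in dDC and 27.2 and 37.9 CPM in controls, and the activation marker Cd44 had 281 and 280 CPM in dDC and 163 and 312 CPM in controls, so the groups overlapped in both.

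Among 15 receptors of the CD28 family and inhibitory receptors, 8 had an unadjusted p under 0.05 on the higher side and 1 on the lower side, and the median log2 change was 0.72, which was 0.46 without dDC 2. Cd200r1 and Klrg1 led. Tigit, an inhibitory receptor for CD155, had 298 and 311 CPM in dDC and 183 and 93.3 CPM in controls (log2 1.14, SE 0.28, edgeR adjusted p = 0.350). Cd28, the main costimulatory receptor of T cells, had 818 and 700 CPM in dDC and 598 and 503 CPM in controls (log2 0.46, SE 0.12, edgeR adjusted p = 0.412). The lower member was Cd160, at 0.669 and 0 CPM in dDC and 2.45 and 4.18 CPM in controls. Lag3, another inhibitory receptor, was listed at no more than 0.0556 CPM in any of the 4 libraries.

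The naive or resting T cell list, 25 genes, went the other way. It had 13 members with an unadjusted p under 0.05 on the lower side and 1, Il7r, on the higher side. Its median log2 change was -0.82, and 3 members were above 0. Without dDC 2 the 13 became 6. Besides Actn1 and Satb1, the survival gene Bcl2 had 168 and 188 CPM in dDC and 470 and 402 CPM in controls (log2 -1.29, SE 0.30, edgeR adjusted p = 0.306). Ly6c1, a surface antigen of resting T cell subsets, had 139 and 63.6 CPM in dDC and 205 and 277 CPM in controls (log2 -1.25, SE 0.32, edgeR adjusted p = 0.412). In both genes the dDC libraries lay below both controls. Ccr7, the receptor for entry into lymph nodes, had 252 and 238 CPM in dDC and 535 and 352 CPM in controls (log2 -0.86, SE 0.28). The transcription factor genes Foxp1 (log2 -0.64), Bach2 (-1.12), Tcf7 (-0.40) and Lef1 (-0.57) had values below 0 too, the first 3 with groups that did not overlap. Il7r, the interleukin 7 receptor chain, had 900 and 654 CPM in dDC and 579 and 436 CPM in controls (log2 0.61), and S1pr1, the receptor for exit from lymph nodes, overlapped between groups at 1276 and 927 CPM in dDC and 1084 and 716 CPM in controls.

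**Figure D3:**
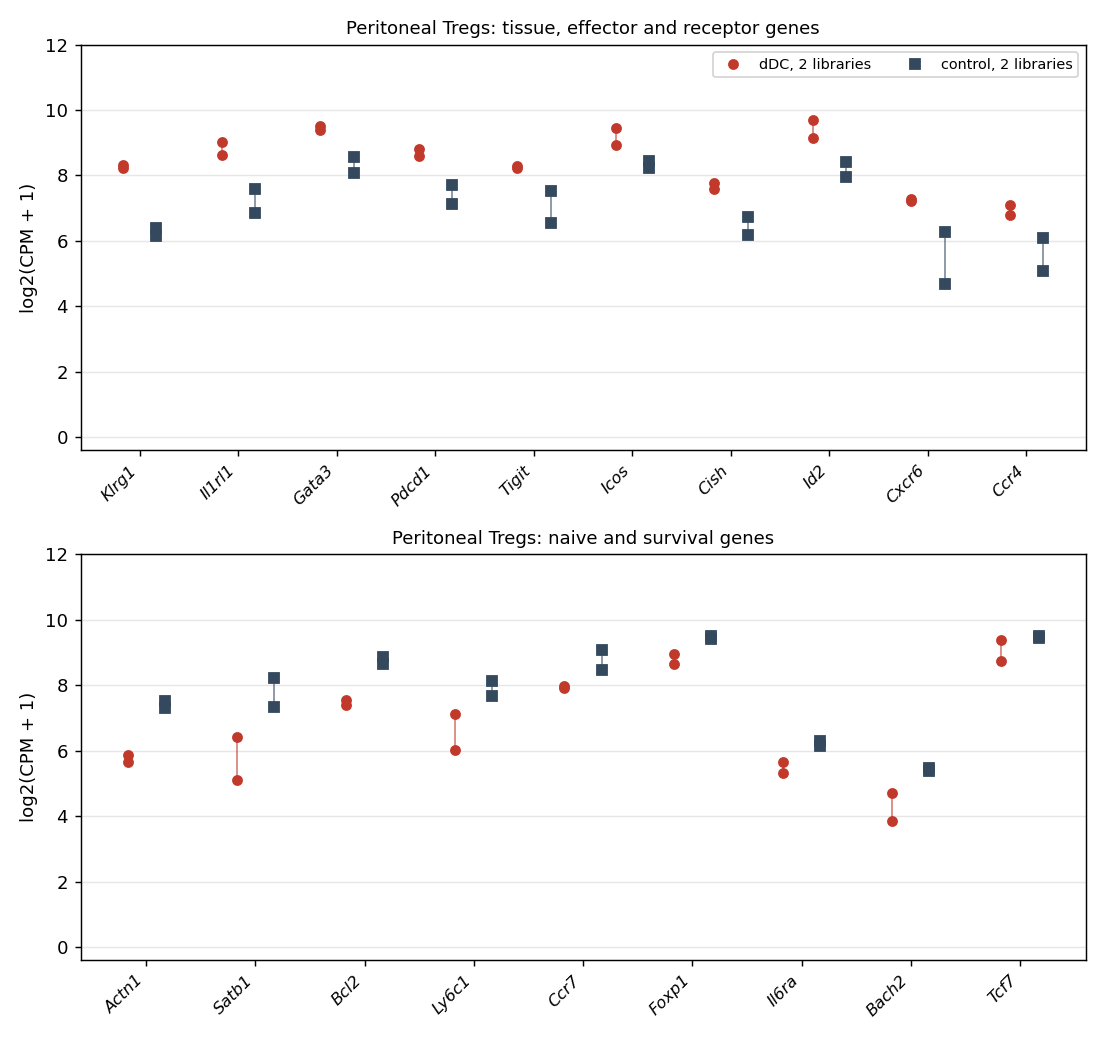
Values in log2(CPM + 1) of tissue, effector and receptor genes (top) and naive and survival genes (bottom), dDC libraries as circles and control libraries as squares. Both dDC libraries lie above both controls in the 10 genes of the top panel and below them in the 9 of the bottom panel, for example 450 and 384 CPM against 209 and 138 CPM for Pdcd1, and the genes drawn were chosen with their values known.

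**Figure D4:**
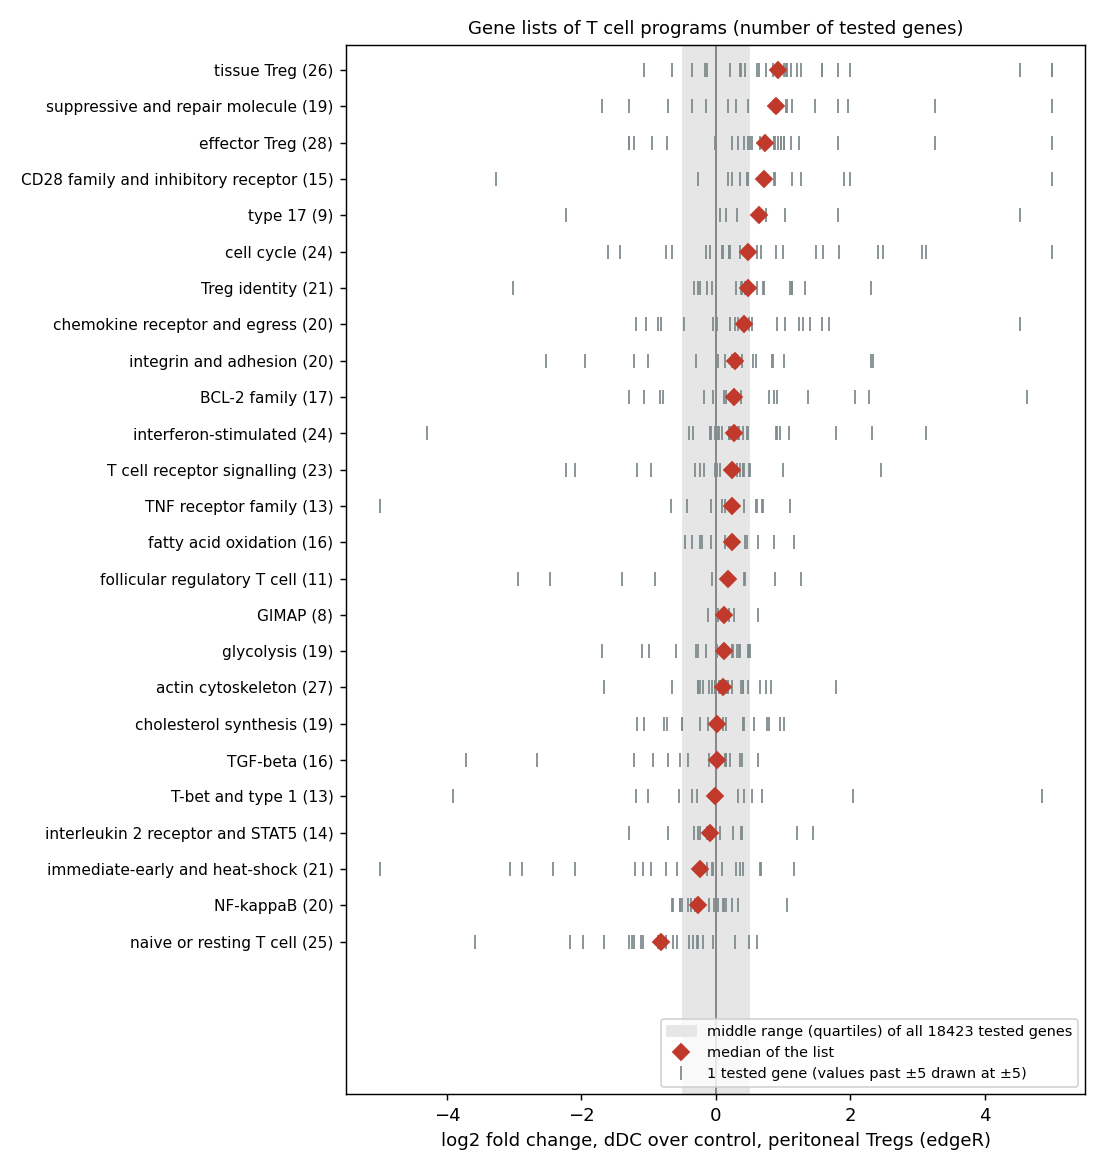
Log2 fold change, dDC over control, of each tested member (ticks) of 25 lists of T cell programs, with each list's median as a diamond and the middle range of all tested genes, from the first to the third quartile, as a grey band. The tissue Treg median of 0.93 and the naive or resting median of -0.82 lie at opposite ends. The lists were written with earlier results of these data known, and they share genes.

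Suppressive and repair molecules, 19 tested, had 6 members with an unadjusted p under 0.05 on the higher side and 0 on the lower side, with a median log2 change of 0.90. Without dDC 2 the 6 became 3 and the median 0.40. Ebi3, the shared subunit of interleukins 27 and 35, had 21.6 and 16.5 CPM in dDC and 6.70 and 4.05 CPM in controls (log2 1.82, SE 0.40, edgeR adjusted p = 0.285). Lgals1, which encodes galectin 1, had 463 and 641 CPM in dDC and 353 and 229 CPM in controls (log2 0.92, SE 0.22, edgeR adjusted p = 0.319). Fgl2, a secreted fibrinogen-like suppressor, had 46.6 and 57.2 CPM in dDC and 9.34 and 1.39 CPM in controls (log2 3.26, SE 0.82, edgeR adjusted p = 0.3997). Each of these was separate between groups. Entpd1, the ATP-degrading ectoenzyme CD39, had 27.4 and 35.3 CPM in dDC and 11.7 and 16.9 CPM in controls (log2 1.13), while Nt5e, the CD73 gene of the next step to adenosine, had 619 and 603 CPM in dDC and 482 and 515 CPM in controls (log2 0.29, SE 0.24, edgeR adjusted p = 0.890).

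Of 20 chemokine and egress receptors, 6 had an unadjusted p under 0.05 on the higher side and 2, Ccr7 among them, on the lower side, with a median log2 change of 0.42. Without dDC 2 the 2 on the lower side became 0, and without control 1 they became 1. The median was 0.92 without control 2. Cxcr6, a receptor of T cells resident in tissue, had 153 and 149 CPM in dDC, 75.8 CPM in control 1 and 24.5 CPM in control 2 (log2 1.59, SE 0.41, edgeR adjusted p = 0.412). Cxcr4 had 65.0 and 74.1 CPM in dDC and 32.6 and 20.1 CPM in controls (log2 1.40), Ccr4, the skin-homing receptor, 135 and 110 CPM in dDC and 66.4 and 32.8 CPM in controls (log2 1.30), and Ccr6 36.2 and 50.9 CPM in dDC and 22.2 and 20.3 CPM in controls (log2 1.04). For all of them the groups were separate. Cxcr3, the receptor of type 1 responses, overlapped at 168 and 315 CPM in dDC and 196 and 186 CPM in controls. Among 20 integrins and adhesion genes, 4 were on the higher side at an unadjusted p under 0.05 and 0 on the lower side, namely Itgb1, Itgae, Itgal and Cd2. The count on the lower side was 2 without control 1. Itgal, the LFA-1 alpha chain, had 524 and 496 CPM in dDC and 418 and 257 CPM in controls (log2 0.60), and Cd2, a receptor for CD48, had 1945 and 1774 CPM in dDC and 1445 and 1095 CPM in controls (log2 0.55).

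Genes of cell survival were not uniform. Of 17 tested BCL-2 family genes, 2 had an unadjusted p under 0.05 on the lower side and 1 on the higher side. The higher count was 2 without control 1 and 0 without control 2 or dDC 2, and the lower count was 1 without dDC 1, control 2 or dDC 2. Bcl2 was 1 of the lower, and Bcl2l11, which encodes its pro-apoptotic partner BIM, was the other, with 25.2 and 25.5 CPM in dDC and 45.01 and 60.9 CPM in controls (log2 -1.06, SE 0.38, edgeR adjusted p = 0.669). Mcl1, a survival protein that Tregs need, had 262 and 353 CPM in dDC and 317 and 377 CPM in controls, and the groups overlapped. Bcl2l1, the BCL-XL gene, had 81.7 and 68.3 CPM in dDC, 56.8 CPM in control 1 and 1.20 CPM in control 2, and was 1 of the 138 genes called without control 1.

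The line's name concerns NF-kappaB in dendritic cells. In the Tregs themselves 1 of 20 NF-kappaB genes had an unadjusted p under 0.05 on the higher side and 0 on the lower side. That is near the shares over all genes, 4.04 and 2.31 percent. The median log2 change was -0.27, and it was 0.08 without control 2. Without control 1 the count on the lower side was 4. Tnfaip3, which encodes the inhibitor A20, had 545 and 511 CPM in dDC and 303 and 205 CPM in controls (log2 1.06, SE 0.39, edgeR adjusted p = 0.705). Nfkb1 had 166 and 131 CPM in dDC and 201 and 195 CPM in controls (log2 -0.42, edgeR adjusted p = 0.805). Of 13 TNF receptor family genes, 3 were on the higher side, Tnfrsf4, Tnfrsf18 and Tnfrsf1b, and 0 on the lower side, a count that was 3 without dDC 1. Of these Tnfrsf1b, the TNF receptor 2 gene, had overlapping groups, with 87.9 and 184 CPM in dDC and 91.1 and 78.3 CPM in controls.

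Antigen receptor signalling genes had members with a small p in both directions. The shares over all genes at an unadjusted p under 0.05 were 4.04 percent on the higher and 2.31 percent on the lower side. Of 23 T cell receptor signalling genes, 3 had an unadjusted p under 0.05 on the higher side, Cd3e, Cd3g and the adaptor gene Lcp2 (log2 0.41, 0.32 and 0.51, edgeR adjusted p = 0.335, 0.745 and 0.350), and 7 had one without control 1. The 2 on the lower side were the early response genes Nr4a1 and Egr2, and the count was 1 on that side without control 2 or without dDC 1 and 0 with limma. Nr4a1, the Nur77 gene that antigen receptor signals induce within hours, had 8.70 and 21.6 CPM in dDC, 23.0 CPM in control 1 and 106 CPM in control 2 (log2 -2.10, SE 0.62, edgeR adjusted p = 0.548), and without control 2 its log2 change was -0.61. Among 21 immediate-early and heat-shock genes, which also respond to tissue handling, 0 were on the higher side and 1, Nr4a1, on the lower side, and the median was -0.24. Without control 2 that median was 0.11, with 15 of 21 above 0, and without dDC 2 it was -0.83. Of 14 genes of the interleukin 2 receptor and STAT5, 2 were on the higher side, Cish and Il2rg, and 1, Bcl2, on the lower side, with a median of -0.09. That median was 0.14 without dDC 1.

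Helper programs were described through 4 lists. The type 1 list of 13 genes had 2 on the higher side and 1 on the lower side at an unadjusted p under 0.05, and its factor Tbx21 had at most 2.49 CPM in any of the 4 peritoneal libraries. The 2 on the higher side became 0 without dDC 1, and the median of -0.01 was 0.30 without control 2. Ifngr2, a chain of the interferon gamma receptor, had 34.8 and 27.9 CPM in dDC and 67.6 and 59.2 CPM in controls (log2 -1.01, SE 0.27, edgeR adjusted p = 0.428), while Ifngr1, the other chain, had 4069 and 3405 CPM in dDC and 3088 and 2053 CPM in controls (log2 0.54). The type 17 list of 9 had 3 on the higher side, Ccr6, Rora and Maf, with 8 members above 0 and a median of 0.64. The 3 became 1 without control 2 or without dDC 2. Its cytokine gene Il17a had 0 reads in both dDC libraries and in control 1 and 7 reads in control 2. The follicular list of 11 had 3 on the higher side, Pdcd1, Icos and Tox, and a median of 0.17, which was -0.09 without dDC 2. The TGF-beta list of 16 had 0 on the higher side and 1, the inhibitory Smad7, on the lower side, with 17.04 and 11.4 CPM in dDC and 20.5 and 33.8 CPM in controls (log2 -0.93, SE 0.30), and the lower count was 5 without control 1.

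In metabolism and growth, glycolysis had 4 of 19 members on the higher side and 2 on the lower side at an unadjusted p under 0.05, with a median log2 change of 0.12. The higher count was 1 without dDC 1 or without control 2, and the lower count was 0 without control 2 or dDC 2. Aldoa, an aldolase, had 936 and 1051 CPM in dDC and 772 and 646 CPM in controls (log2 0.49, SE 0.13, edgeR adjusted p = 0.412), and Ldha, lactate dehydrogenase A, had 974 and 893 CPM in dDC and 761 and 577 CPM in controls. Pdk1, a kinase that holds pyruvate back from the mitochondrion, had 41.9 and 31.9 CPM in dDC and 64.0 and 83.5 CPM in controls (log2 -0.999, SE 0.31). Fatty acid oxidation had 2 of 16 on the higher side, the mitochondrial carrier gene Slc25a20, at 36.5 and 40.1 CPM in dDC and 21.1 and 13.1 CPM in controls, and Cpt1a, at 94.4 and 116 CPM in dDC and 53.9 and 62.0 CPM in controls. Both encode steps by which long acyl chains enter mitochondria, and neither passed the threshold (edgeR adjusted p = 0.544 and 0.618). The cell cycle list had 3 of 24 on the higher side, 0 on the lower side and a median of 0.48. Cdk1, the mitotic kinase, had 4.79 and 8.28 CPM in dDC and 0 and 0.0633 CPM in controls, whereas Mki67, the proliferation antigen, had 26.7 and 9.72 CPM in dDC and 25.4 and 35.5 CPM in controls. Without control 1 the 3 became 11 and the median 2.04. Cholesterol synthesis (1 of 19 higher, 0 lower), GIMAP genes (0 of 8 in both directions), interferon-stimulated genes (2 of 24 higher, 1 lower) and the actin cytoskeleton (5 of 27 higher, 2 lower) had medians between 0.02 and 0.27. The shares over all genes were 4.04 percent higher and 2.31 percent lower. Without control 1 the interferon list had 7 higher and a median of 0.44, and the cholesterol median was 0.73. Without control 2 the cholesterol and GIMAP medians were -0.15 and -0.01.

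Markers of other cells were read beside these lists. The 10 tested markers of group 2 innate lymphoid cells, which carry ST2 and GATA3 too, summed to 2058 and 2267 CPM in dDC and to 899.7 and 802 CPM in controls, and 4 had an unadjusted p under 0.05 on the higher side. In 8 of the 10 both dDC libraries lay above both controls, 9 had a log2 change above 0, and the median was 2.21 (1.44 with genes at 0 reads in controls set at their floor). The 4 with a small p (Klrg1, Id2, Gata3 and Il1rl1) are also in the tissue or effector Treg lists. They made up nearly all of these sums, so the sums follow those lists through shared members. The defining cytokine genes Il5 and Il13 had 0 reads in all 4 libraries. The part of such cells in the values was not tested. B cell markers had 0 of 19 in both directions and a median of -0.13, which was 0.63 without control 2 and -0.59 without control 1. Macrophage markers had 1 of 16 in each direction and a median of -1.94, which was 2.86 without control 2. Of cytotoxic T and NK cell markers 2 of 15 were on the higher side, Klrb1c and Eomes, both at or below 2.00 CPM in the 4 peritoneal libraries, and the 2 became 0 without control 1. Mast cell protease Tpsb2 had 133 reads in dDC 1 and at most 2 in the others. The member of the mast cell list with an unadjusted p under 0.05 was Srgn, which made up nearly all of that list's sum. Srgn had 1116 and 1288 CPM in dDC, 931 and 819 CPM in controls, and at least 594 CPM in every spleen and thymus library. Pecam1 likewise made up nearly all of the mesothelial or stromal sum. The sums of dendritic cell and monocyte markers were 972 and 946 CPM in dDC and 529 and 1311 CPM in controls, so the groups overlapped, and 1 of 16 was on the higher side and 2 on the lower side. Plasma cell (9 tested), erythroid (11) and mesothelial or stromal markers (8) had 0 in both directions, and B-1 cell (2 of 11), mast cell (1 of 5) and granulocyte markers (1 of 7) had members on the higher side and 0 on the lower side. Without control 2 these 3 counts were 1, 0 and 0.

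Tissue context was set beside these values through the spleen and thymus libraries of the same line. The difference between the peritoneal and the spleen change passed the threshold in 0 of 18423 genes in both directions by edgeR and by limma, with 592 genes (3.21 percent) on the higher and 308 (1.67 percent) on the lower side at an unadjusted p under 0.05. For the thymus the counts were also 0, with 704 genes (3.82 percent) on the higher and 349 (1.89 percent) on the lower side. DESeq2 called 35 higher (0.205 percent) and 15 lower (0.0879 percent) for spleen and 89 higher (0.568 percent) and 26 lower (0.166 percent) for thymus, and without control 1 edgeR called 70 higher and 1 lower for spleen and 70 higher and 2 lower for thymus. The smallest adjusted p was that of Krt83 in both (edgeR adjusted p = 0.148 against spleen and 0.114 against thymus).

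The size of the change was set side by side for a few genes. Itgb1 had a log2 change of 1.02 (SE 0.17) in the peritoneal cavity, 0.91 (SE 0.14) in spleen and 1.17 (SE 0.15) in thymus. For Il1rl1 the values were 1.57 (SE 0.58), 1.61 (SE 0.48) and 1.33 (SE 0.51), and for Bcl2 they were -1.29 (SE 0.30), -1.14 (SE 0.25) and -0.66 (SE 0.28). The next genes are among the leading genes and had values farther from 0 in the peritoneal cavity, as follows in part from how they were chosen. Klrg1 had 1.99 (SE 0.33) there, 0.24 (SE 0.26) in spleen and 0.68 (SE 0.29) in thymus, and the difference from spleen was 1.76 (SE 0.42, unadjusted p = 0.0012, edgeR adjusted p = 0.92). Tnfrsf4 had 1.10 (SE 0.17), 0.15 (SE 0.14) and 0.07 (SE 0.15), with a difference of 0.95 from spleen (SE 0.21, edgeR adjusted p = 0.92). Gpr83 had -3.01 (SE 0.50), -0.50 (SE 0.38) and -0.40 (SE 0.43). Ccr8 differed in level between tissues. It had 6.32 ± 4.57 CPM in dDC and 0.245 ± 0.346 CPM in controls of the peritoneal cavity (SD, n = 2 each), 63.6 ± 7.09 and 67.4 ± 6.47 CPM in dDC and control spleen (SD, n = 3 each), and 119 ± 2.79 CPM in dDC thymus (SD, n = 2) and 138 ± 20.1 CPM in control thymus (SD, n = 3).

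**Figure D5:**
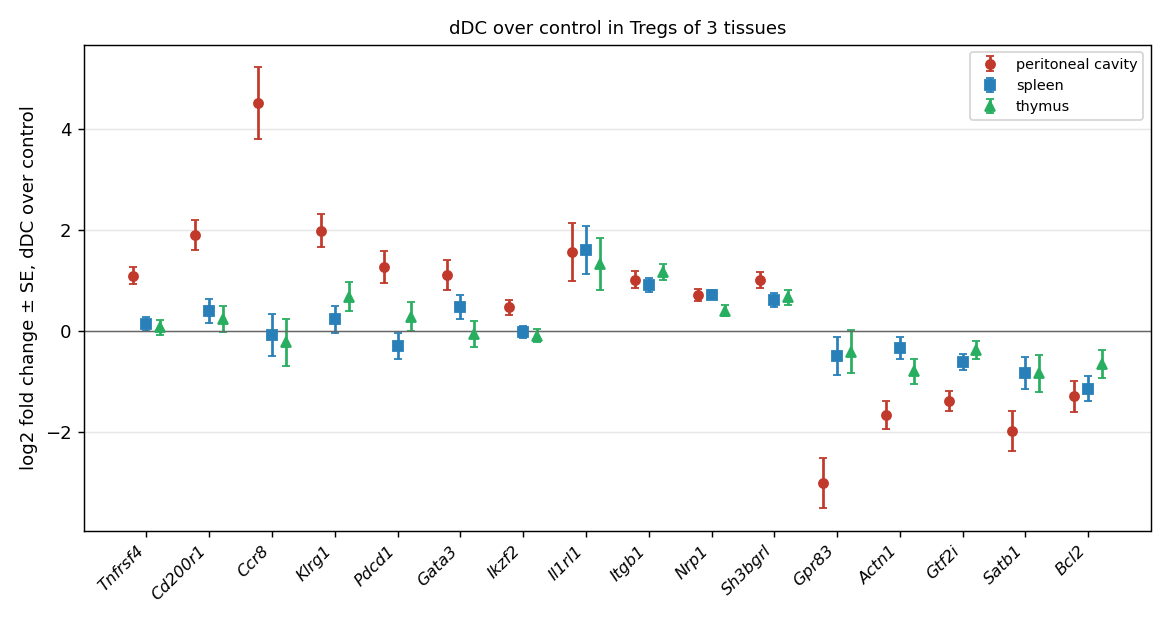
Log2 fold change, dDC over control, with its SE, of 16 genes in Tregs of the peritoneal cavity (circles), spleen (squares) and thymus (triangles). Itgb1 and Il1rl1 are above 0 in the 3 tissues. Tnfrsf4, Klrg1, Ccr8 and Gpr83 lie farther from 0 in the peritoneal cavity, as follows in part from their choice by peritoneal p. Their differences between tissues did not pass the threshold over all genes.

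The other genes named for a difference from spleen or thymus were mostly weak. Tanc2, a scaffold protein gene, had 11.5 ± 0.0271 CPM in dDC and 0.803 ± 0.0289 CPM in controls of the peritoneal cavity (SD, n = 2 each), against 2.74 ± 1.28 and 9.33 ± 2.48 CPM in dDC and control spleen (SD, n = 3 each). Hk2, which encodes hexokinase 2, had 5.37 ± 1.94 and 17.3 ± 5.49 CPM in peritoneal dDC and control Tregs, against 13.6 ± 3.16 and 3.56 ± 1.83 CPM in spleen, and Cpt2, an enzyme of fatty acid oxidation, had 29.2 ± 3.31 and 40.3 ± 4.12 CPM, against 41.8 ± 5.28 and 16.7 ± 3.77 CPM (unadjusted p = 0.00066 and 0.00077 for the difference, edgeR adjusted p = 0.92 for both). Those 3 genes had opposite signs in the 2 tissues. Morc3 and Phf3, nuclear proteins, had log2 changes of 0.94 and 0.93 in the peritoneal cavity, -0.24 and -0.05 in spleen, and 0.14 and -0.40 in thymus. Against thymus, Cd22 and Ctsh were named with log2 differences of -6.87 and -6.80, and these B cell and lysosome genes had 4.63 ± 4.22 and 6.38 ± 3.53 CPM in thymus dDC (SD, n = 2) and values near 0 in thymus controls (0.0364 ± 0.0315 and 0.0565 ± 0.0575 CPM, SD, n = 3). The others named against spleen had log2 differences of 8.31 (Map2), 2.59 (Ephb6), -4.36 (Grk4), -2.02 (Cbl) and -1.69 (Znrf1). Those named against thymus had 4.65 (Rhoq), 2.75 (Cep89), -8.69 (Xkrx), -7.59 (Rasgrp3), -3.07 (Zfp335) and -2.30 (Qtrt1). Some of these rest on values near 0. Map2 had 1.13 and 0.389 CPM in peritoneal dDC and 0 CPM in both peritoneal controls. Xkrx and Rasgrp3 had at most 0.0547 CPM in thymus controls, and their peritoneal log2 changes were -0.46 and -1.09. Rhoq had 0.548 and 0.393 CPM in thymus dDC.

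The direction of the leading genes was also read in spleen and thymus, whose libraries are not those of the peritoneal groups. Those libraries did enter the estimate of the spread behind the p that ranked these genes. The labels do not say whether the tissues came from the same mice. Of the 15 on the higher side, 11 were above 0 in spleen and 12 in thymus, where 48.4 and 46.2 percent of all genes were above 0. Their median log2 change was 0.40 in spleen and 0.31 in thymus, while the peritoneal median of 1.90 follows from how they were chosen. Of the 15 on the lower side, 12 were at or below 0 in spleen and 12 in thymus, beside 51.6 and 53.8 percent of all genes, with medians of -0.17 and -0.40, and the peritoneal median of -1.35 likewise follows from the choice. The medians of the tissue Treg list were 0.93, 0.21 and 0.19, those of the naive or resting list -0.82, -0.30 and -0.22, and those of the receptor list of the CD28 family 0.72, -0.00063 and 0.24, in the order peritoneal cavity, spleen and thymus.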

How the data were processed

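Foxp3+ T cells sorted from mouse peritoneal cavity, spleen and thymus were sequenced as bulk cDNA made with poly-dT priming and template switching, per the labels' protocols. The authors deposited raw read counts per gene, not normalized. The submitters' processing notes name bcl2fastq 2.19.1, GSNAP, featureCounts 1.6.0 and mm10. Of 45706 genes, the 92 ERCC spike-in rows being left out, 18423 passed edgeR's filterByExpr over the 6 groups and held 99.93 percent of the counts. With 15714286 to 24332044 counts per library, edgeR 4.0.16 (TMM scaling, robust quasi-likelihood F test, R 4.3.3) was fitted to all 15 libraries with 1 mean per tissue and genotype, and p-values were Benjamini-Hochberg adjusted over all tested genes at 0.05. Tissue differences were contrasts in the same fit. The SE of a log2 change was its absolute value divided by the square root of the F statistic. Limma 3.58.1 (voom), DESeq2 1.42.0, other filters, scaling and omitted libraries were alternatives. The steps were tested on simulated data. An exact permutation test of 2 against 2 libraries cannot go below p = 0.333. No 2 libraries of the same group were duplicates (chi-square per degree of freedom between peritoneal replicates 59.9 for dDC and 103 for control). Pairs across groups were not compared.

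Leading genes had a mean of 5 CPM or more in whichever group was higher. Called genes with separate groups came first by size of change. Each direction was then filled to 15 by smallest p, without a demand for separate groups. Each list gave its called genes or those with the smallest p, and each tissue difference gave 6 genes per direction. Antigen receptor segments, mitochondrially encoded, ribosomal protein and Y-linked genes, Xist and Tsix were left out of the leading genes and of those named for a tissue difference. Other X-linked genes were kept. The comparison, gene lists and genes were chosen with earlier results of these data known. Promoter sequences came from RefSeq (GRCm38.p6). Some genes that the rule would name are not reported here.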

Additional observations from a re-analysis of the deposited data

How the results depend on the processing

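The count of genes called higher was 1 and lower 0 with edgeR. It was 7 and 5 with no filter on low counts, 9 and 3 with a mean of at least 5 CPM, 131 and 63 with DESeq2, and 7 and 3 with limma. When the peritoneal libraries were fitted alone it was 0 and 0, with a smallest edgeR adjusted p of 0.915. Leaving out each peritoneal library in turn gave 0 to 138 higher and 0 to 8 lower. For the difference from spleen, DESeq2 called 35 higher and 15 lower, and leaving out libraries gave 0 to 70 and 0 to 1. For the difference from thymus, DESeq2 called 89 and 26, and leaving out libraries gave 0 to 70 and 0 to 2. The cause of these differences was not tested. No paired analysis was made, because the labels number the libraries consecutively and give no number shared between groups. A pairing of libraries that the labels do not state would not be accounted for. Genes at low counts limit the precision, since the median biological coefficient of variation was 1.29 below 5 CPM and 0.18 at 100 CPM or more. Among single genes that did not pass the threshold, the sign of the log2 change turned when 1 library was left out: Lyz2 ran between -3.04 and 1.64, Cd44 between -0.15 and 0.78, Mcl1 between -0.40 and 0.021, Cxcr3 between -0.19 and 0.72, Rhoq between -0.035 and 0.92, Xkrx between -1.91 and 0.24, Cd22 between -0.60 and 0.56 and Ctsh between -0.59 and 0.56. With limma Cd22 was 0.0015 and Ctsh 0.024.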
